A study of Homo sapiens with 24 samples.

Results

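The interval from 8 h to 16 h after replating was described from 6 of the 24 arrays of the series, the 3 labelled 8h and the 3 labelled 16h. All probe sets that are not controls entered, and 9966 genes were tested. The cells were HepaRG, an established human line of liver progenitors whose cells mature into hepatocyte-like or biliary-like ones. Every culture had been grown in William's E medium with serum, insulin and hydrocortisone for 2 weeks and for 2 further weeks with DMSO, which drives hepatocyte-like differentiation. The hepatocyte-like cells were then lifted by mild trypsin treatment and replated sparsely, a step meant to start their reprogramming. The groups differ only in the time of collection after that step. HepaRG is 1 cell line, and no label tells whether the 3 arrays of a time stand for separate cultures. The p-values of genes therefore rest on the spread among arrays of the same time, pooled over all 24 arrays, and that spread may be technical. The 3 arrays at 12 h, the middle of the interval, and the 3 at 24 h, which end the next 8 hours, are used beside the 6.

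Differentiated hepatocytes are quiescent, and re-entry into the cell cycle takes them through G1 into S phase. In late G1 the retinoblastoma proteins are phosphorylated and release the E2F factors, which switch on genes for licensing of replication origins, for the replication fork and for making deoxynucleotides. The genes for mitosis are switched on later, in G2, largely through the B-MYB and FOXM1 complexes acting at promoters that hold CHR and CCAAT elements. In liver this programme is known from regeneration, in which dividing hepatocytes also lower part of their specialised metabolism.

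A gene was called higher or lower when its adjusted p was under 0.05 (limma, Benjamini-Hochberg over the 9966 genes) and its difference at least 2-fold. Log2 changes are differences of log2(signal + 18) with their standard error, a scale on which the change of dim genes is understated. Single values are linear signals, listed in the order of replicates 1, 2 and 3, and means are given ± SD (n = 3). Genes read by a probe set whose name ends in _x_at, which may cross-hybridize with similar transcripts, are marked.

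Measures of array quality overlapped between the times. The median signal was 118 ± 6.56 at 8 h and 108.6 ± 7.66 at 16 h (exact permutation test, two-sided, p = 0.2). The 3'/5' ratio of the ACTB control probe sets, which is higher for degraded RNA, was 1.31 ± 0.143 and 1.42 ± 0.228 (exact permutation p = 0.7). With 3 arrays against 3 the smallest p such a test can give is 0.1. Correlations of log2 values over the genes lay between 0.942 and 0.943 within 8 h, between 0.947 and 0.956 within 16 h, and between 0.926 and 0.939 across the times. Levels at 0 h, where the ACTB ratio of 1 of the 3 arrays was 6.91, are given below without a test. The 14 measured hepatocyte markers summed to signals of 352800.0 to 366700.0 at 8 h and 260200.0 to 288100.0 at 16 h, so hepatocyte-like cells were present at both times. The 4 measured endothelial markers, of 10 listed, summed to 221.1 to 323.8 at 8 h and 211.4 to 291.6 at 16 h, and the 8 measured leukocyte markers, of 14 listed, to 844.6 to 1126 and 529.9 to 831.6.

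Between 8 h and 16 h, 30 of 54 measured genes of origin licensing and the replication fork, 11 of 21 of DNA repair and 22 of 56 of mitosis rose. Over the same hours 12 of 32 genes of drug metabolism, 9 of 31 of amino acid breakdown and 5 of 19 of growth factor feedback fell. In all, 203 genes were called higher (2.04% of those tested) and 171 lower (1.72%). Of these, 197 and 164 had 3 values at 16 h that all lay beyond the 3 values at 8 h. Such separation alone occurred upward in 13.7% and downward in 14.1% of the genes tested. The median log2 change of all genes was -0.03, and it was 0.008 after quantile normalization and 0.07 after each array was centred on its median. The share of higher genes among those called moved with that scaling, from 54.3% to 60.8% with quantile normalization and to 70.5% (279 higher, 117 lower) with centring. Another tested probe set existed for 58 of the genes called higher, and for 46 of those all probe sets had the same sign. Among the genes called lower the same numbers were 58 and 45. In bulk samples, fewer cells of a type and less RNA per cell cannot be told apart.

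**Figure D1:**
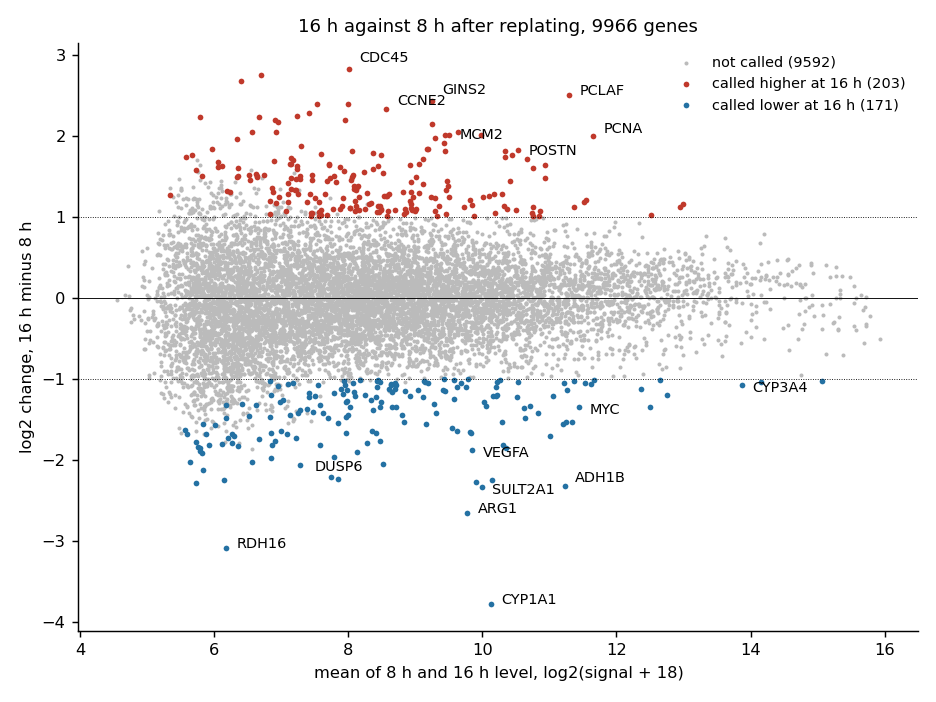
Log2 change from 8 h to 16 h of the 9966 genes (y axis) against the mean of their levels at both times (x axis, log2(signal + 18)), with 203 genes called higher in red, 171 called lower in blue and dotted lines at 2-fold. The largest rise is CDC45, at 2.82, and the largest fall CYP1A1, at -3.77.

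The origin licensing and helicase list holds the genes that load and fire the replicative MCM helicase, and 15 of its 25 measured members rose. Its median log2 change was 1.24, against -0.03 over all genes. CDC45, which joins the MCM ring to form the active helicase, showed the largest rise of all genes (probe set 204126_s_at). Its signals were 80.6, 31.9 and 138 at 8 h and 738, 618 and 543 at 16 h. The mean at 0 h had been 239, so 8 h stood below the start of the course. The groups did not overlap, and the lowest 8 h array was replicate 2. The change was 2.82 ± 0.35 (adjusted p = 7.4e-07). GINS2, a subunit of the GINS complex of the same helicase, had signals of 279, 246 and 206 at 8 h and 1499, 1309 and 1347 at 16 h. Every 16 h array was several times brighter than every 8 h array, and the change was 2.43 ± 0.18 (adjusted p = 3.5e-11). A second GINS subunit, GINS1, rose by 2.15 ± 0.19. MCM2, a subunit of the hexameric ring itself, read 422, 301 and 312 at 8 h and 1747, 1227 and 1348 at 16 h. These groups were again apart, with a change of 2.01 ± 0.22 (adjusted p = 1.1e-07). MCM5 rose by 2.05 ± 0.18, from 372 ± 68.7 to 1605 ± 372, and its other probe set changed by 2.15. MCM10, which helps to start the helicase, rose by 2.39 ± 0.31. Below these in size came MCM4, MCM6, MCM7, ORC1, ORC3, ORC6, CDC6, GINS4 and GMNN, the last an inhibitor of licensing, with changes between 1.05 for MCM7 and 1.83 for MCM4. Of these, ORC6 was read by an _x_at probe set.

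The replication fork list covers the clamp, its loader, the polymerases and the ligase. From 0 h to 8 h its median log2 change had been -0.39, against -0.15 over all genes. From 8 h to 16 h, 15 of its 29 measured members rose, with a median of 1.13. PCNA, the sliding clamp that holds the polymerases on DNA, was the largest of them. Its signals were 1609, 1777 and 1379 at 8 h and 6633, 5819.8 and 6631 at 16 h. The groups were far apart and each was tight, and the change was 1.99 ± 0.19 (adjusted p = 9e-09). RFC3 and RFC4, subunits of the loader that opens the clamp, rose by 1.97 ± 0.18 and 1.81 ± 0.14. RFC4 read 638, 732 and 656 at 8 h and 2394, 2394 and 2461 at 16 h, with hardly any spread among the 16 h arrays. POLE2, a subunit of the leading-strand polymerase, rose by 1.76 ± 0.25. LIG1, the ligase that seals lagging-strand fragments, was less certain. Its signals were 31.6, 19.6 and 154 at 8 h and 251, 242 and 151 at 16 h, so replicate 3 at 8 h overlapped replicate 3 at 16 h. The change of 1.73 ± 0.45 was called (adjusted p = 0.0083), but without 8 h replicate 2 it was 1.30 and the call was lost (adjusted p = 0.08). The other members called were PRIM1 and PRIM2 of the primase, POLA1, POLA2 and POLD3 of the polymerases, FEN1, DSCC1, TIPIN, RPA1 and RPA3.

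Of 23 measured genes of deoxynucleotide synthesis 5 rose, and the list median was 0.32. DTYMK and TYMS, which make dTDP and dTMP, changed by 1.40 ± 0.22 and 1.12 ± 0.17. TYMS signals were 6323, 6265 and 3694 at 8 h and 13611, 11155 and 9929 at 16 h, so the groups were apart, but 8 h replicate 3 lay well below the other 8 h arrays. Without 8 h replicate 3 the TYMS change was 0.86, and without 16 h replicate 1 it was 0.99, both under the 2-fold threshold. RRM1, the large subunit of ribonucleotide reductase, rose by 1.29 ± 0.17, and by 0.74 on its other probe set. Its partner RRM2, the subunit whose level follows the cell cycle, read 2743, 2648 and 2018 at 8 h and 4475, 4275 and 3047 at 16 h. That change of 0.66 ± 0.15 (adjusted p = 0.0029) stayed under 2-fold, while its other probe set changed by 1.24. TK1, the thymidine kinase of dividing cells, rose by 1.25 ± 0.27, but by 0.97 without 8 h replicate 2, which is under 2-fold. DUT, which keeps uracil out of DNA and is read here by an _x_at probe set, rose by 1.18 ± 0.15.

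Of the 26 measured regulators of the G1/S transition, 6 rose, and the list median was 0.39. E2F1, an activator of the S-phase genes, had signals of 64.8, 50.4 and 38.9 at 8 h and 249, 358 and 325 at 16 h. The groups did not overlap and the change was 2.25 ± 0.38 (adjusted p = 0.0001). Its other probe set changed by 0.63. E2F8, a repressor within the same family that is itself an E2F target, rose by 2.39 ± 0.29, from 93.7 ± 24.1 to 561 ± 28.5. Its mean at 0 h had been 273. CCNE2, cyclin E2, the partner of CDK2 at S-phase entry, read 168, 105 and 183 at 8 h and 681, 958 and 844 at 16 h, again with no overlap, and rose by 2.34 ± 0.24 (adjusted p = 2.5e-08), with 0.94 on its other probe set. CDC25A, the phosphatase that activates CDK2, rose by 1.55 ± 0.36, although its other probe set changed by 0.15. RBL1, the pocket protein p107, rose by 1.52 ± 0.48, and its call was lost without 8 h replicate 3, 16 h replicate 2 or 16 h replicate 3, at 1.004, 1.39 and 1.44. The last member called was SKP2, which marks CDK inhibitors for breakdown and is read here by an _x_at probe set. It rose by 1.34 ± 0.20, while its other probe sets changed by -0.19 and 0.81. The other cyclins of G1 did not pass the test. CCND1, cyclin D1, read 1369, 968 and 1059.5 at 8 h and 1469, 1272 and 1359 at 16 h, with overlapping groups and a change of 0.28 ± 0.17 (adjusted p = 0.34). Its other probe set changed by -0.20. CCNE1, cyclin E1, read 182, 109 and 257 at 8 h and 223, 179 and 267 at 16 h, and its change was 0.32 ± 0.32 (adjusted p = 0.61). CDKN1A, the CDK inhibitor p21, changed by 0.24 ± 0.13 (adjusted p = 0.28).

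**Figure D2:**
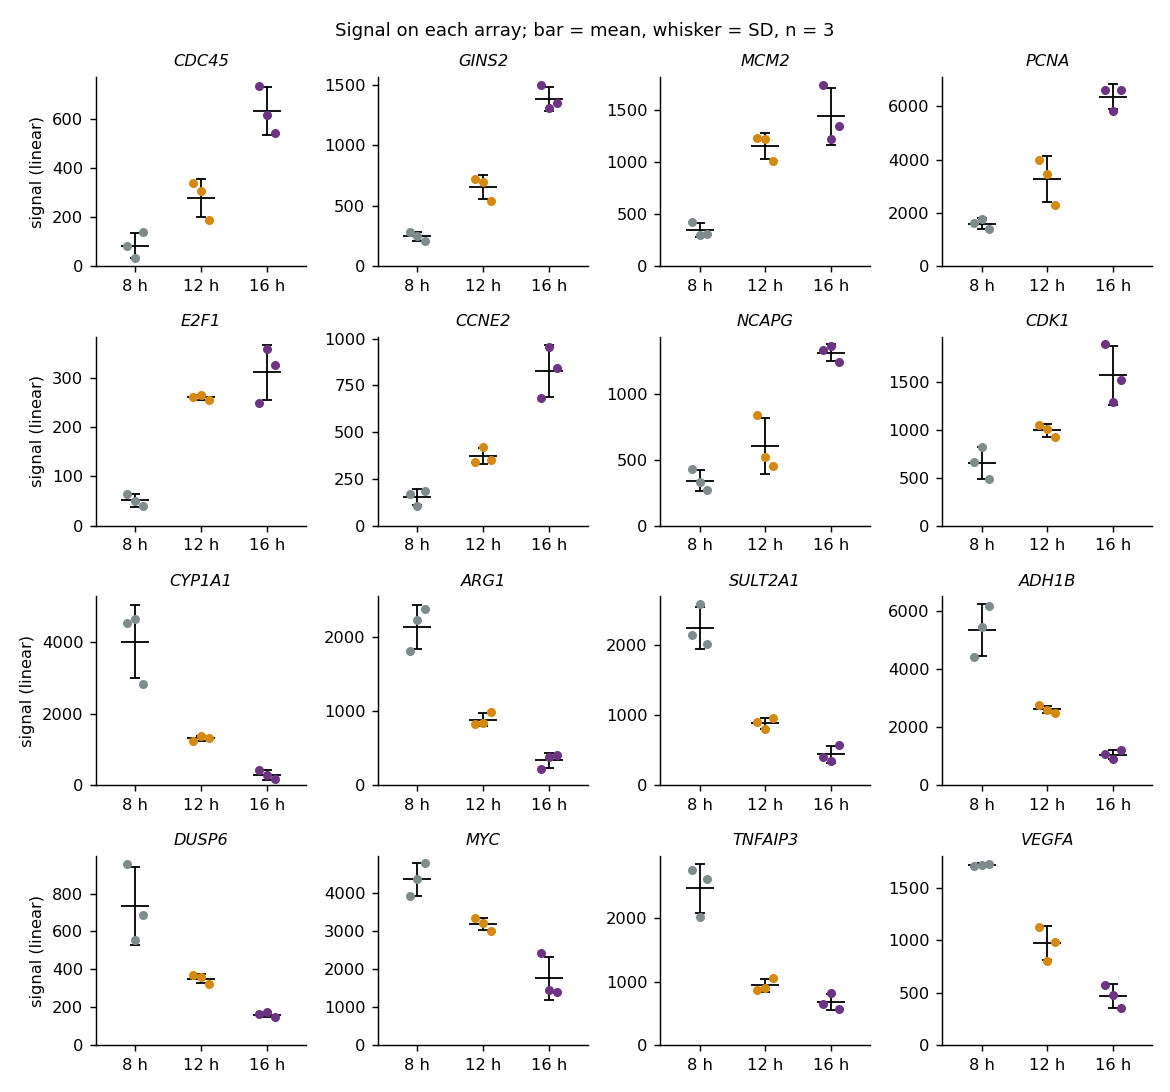
Linear signal (y axis) of 16 genes on each array at 8 h, 12 h and 16 h (x axis), with the mean as a bar and the SD as whiskers (n = 3). For PCNA the 16 h arrays lie between 5819.8 and 6633 and the 8 h arrays between 1379 and 1777, and in every panel the 3 arrays at 16 h lie apart from the 3 at 8 h.

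Genes that package or repair DNA rose as well. Of 21 measured members of the chromatin list, 6 were called, with a list median of 0.77. HELLS, a remodelling enzyme of heterochromatin, went from 4.14, 37.9 and 7.67 at 8 h, where it was dim, to 242, 139 and 182 at 16 h, a change of 2.67 ± 0.54 (adjusted p = 0.0008). EZH2, the methyltransferase of Polycomb, rose by 1.82 ± 0.26. The histone chaperones ASF1B and NASP rose by 1.51 ± 0.28 and 1.44 ± 0.19, the latter by 0.75 on its other probe set. The repair list had 11 of 21 measured members called and a median of 1.09, and all 21 changes were above 0. BRCA1, which acts in homologous recombination, read 123, 112 and 62.3 at 8 h and 454, 554 and 501 at 16 h. The mean at 0 h had been 230. The groups were apart, and the change was 2.19 ± 0.28 (adjusted p = 1.2e-06), with 1.57 on its other probe set. CHEK1, the kinase of the S-phase checkpoint, rose by 1.79 ± 0.28, and the recombination factor RAD51C by 1.65 ± 0.21. BLM, a helicase, was called at 2.05 ± 0.60, but one 8 h array was at 144 against 156 for the dimmest 16 h array. That call was lost without 8 h replicate 2, 8 h replicate 3, 16 h replicate 2 or 16 h replicate 3, with changes from 1.57 to 2.02.

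Mitotic genes also rose within the interval. Of the 56 measured members of the G2/M list, 22 were called, and the median was 0.89. With the larger pseudocount of 73.8, which damps dim genes, 13 were called. NCAPG, a condensin subunit, was one of the clearest. Its signals were 428, 327 and 268 at 8 h and 1333, 1363 and 1238 at 16 h, and with no overlap it rose by 1.91 ± 0.20 (adjusted p = 2.4e-08). Another condensin subunit, NCAPH, rose by 2.04 ± 0.42 from signals as low as 8.58. MAD2L1 of the spindle checkpoint rose by 1.84 ± 0.20, the kinase MELK by 1.71 ± 0.14 and NDC80 of the kinetochore by 1.65 ± 0.35. CDK1, the kinase that drives entry into mitosis, read 658, 821 and 489 at 8 h and 1897, 1289 and 1519 at 16 h. These groups were apart, with a change of 1.25 ± 0.21 (adjusted p = 9.2e-05). Its cyclin partners changed by less than 2-fold, CCNB1 by 0.64 ± 0.17 (adjusted p = 0.009) and CCNA2 by 0.76 ± 0.22 (adjusted p = 0.019). The other probe set of CCNA2 changed by 1.07. TOP2A, which untangles chromosomes, read 276, 328 and 235 at 8 h and 719, 540.4 and 345 at 16 h, and its change of 0.85 ± 0.25 was not called. MKI67, the common proliferation marker, changed by 0.48 ± 0.25 on its brightest probe set (adjusted p = 0.24), while its other probe sets changed by 0.86, 1.61 and 1.28.

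The promoters of the genes that rose were compared by sequence. The windows ran from 250 bases before to 50 bases after each start in RefSeq (GRCh38.p14), and both strands were searched. E2F-type elements were TTTCCCGC, TTTCGCGC, TTTGCCGC and TTTGGCGC, the CHR-type element was TTTGAA and the third was CCAAT. A promoter was counted once per kind however many matches, overlapping or not, it held. The stretches below are parts of windows of genes called higher, written 5′ to 3′ along the strand of transcription and all upstream of the start, with the element named for each gene in capitals, on either strand, and CCAAT left in lower case. They are shown because the first 5 hold E2F-type elements and the last 2 a CHR-type element, the 2 kinds whose shares are given next. The CDK1 window also holds an E2F-type match, outside the stretch shown.
GINS2 (chr16:85688955-85689025, minus strand): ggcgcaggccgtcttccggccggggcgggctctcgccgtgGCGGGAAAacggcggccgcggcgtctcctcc
E2F1 (chr20:33686386-33686445, minus strand): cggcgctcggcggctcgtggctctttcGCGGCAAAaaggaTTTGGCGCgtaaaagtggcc
PCNA (chr20:5126634-5126721, minus strand): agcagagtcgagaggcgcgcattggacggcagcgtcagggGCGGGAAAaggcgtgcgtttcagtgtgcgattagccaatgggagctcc
RFC3 (chr13:33818054-33818141, plus strand): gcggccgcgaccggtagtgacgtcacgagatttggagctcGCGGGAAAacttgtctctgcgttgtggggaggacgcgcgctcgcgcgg
LIG1 (chr19:48170411-48170498, minus strand): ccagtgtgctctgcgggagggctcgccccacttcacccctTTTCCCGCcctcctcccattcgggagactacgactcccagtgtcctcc
NCAPG (chr4:17810904-17810978, plus strand): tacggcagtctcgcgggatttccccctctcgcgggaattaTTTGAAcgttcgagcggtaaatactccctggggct
CDK1 (chr10:60778130-60778215, plus strand): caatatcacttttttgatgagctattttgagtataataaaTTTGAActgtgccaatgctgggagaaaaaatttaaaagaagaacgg

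E2F-type letters stood in 35 of the 168 promoters found for genes called higher (20.8%), in 3 of 134 for genes called lower (2.24%), and in 424 of 8116 for all genes tested (5.22%). Over all 27305 promoters of the table the share was 3.33%. Among the licensing and fork genes together, 13 of 24 promoters of called members held them (54.2%), and 6 of 21 of members that were not called (28.6%). The CHR-type letters were distributed otherwise. They stood in 13 of 17 promoters of called mitotic genes (76.5%) and in 32 of 47 of all measured mitotic genes (68.1%), but in 1 of 45 of the measured licensing and fork genes (2.22%), against 10.2% of all genes tested and 15.4% of the table. CCAAT was present in 53.6% of promoters of genes called higher, 33.6% of those called lower and 37.4% of all genes tested. Among the drug metabolism and amino acid genes called lower it stood in 12 of 19 promoters (63.2%). These are shares of letters in a window and were not tested.

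The interval was then set against the 8 hours that followed it, by a test of the difference between the log2 change from 16 h to 24 h and that from 8 h to 16 h. Both intervals share the 16 h arrays, so an array that deviates at 16 h moves the changes of both in opposite directions. The difference was called for 84 genes (0.843% of those tested), 46 with a higher change in the later interval (0.462%) and 38 with a lower one (0.381%). Without 16 h replicate 3 it was called for 42. From 8 h to 16 h, 30 of the 54 measured licensing and fork genes rose, and from 16 h to 24 h none was called, beside 0.823% of all genes called higher at 24 h (limma, adjusted p). Whatever the size of the change, 3 licensing genes and 1 fork gene had an adjusted p under 0.05 from 16 h to 24 h, and at an unadjusted p under 0.05, 3 licensing and 4 fork genes were higher and 1 fork gene was lower. Their difference was below 0 in 46 of 54, called lower in 15, and its median was -1.07, against 0.04 over all genes. Without 16 h replicate 1 the number called was 8, and without 16 h replicate 3 it was 10. PCNA was among the 15 called lower: after 6361 ± 469 at 16 h it read 6621 ± 1479.5 at 24 h, and the difference of its changes was -1.96 ± 0.34 (adjusted p = 0.0012). GINS2 read 1385 ± 101 and then 1502 ± 9.90, with a difference of -2.31 ± 0.31 (adjusted p = 5.8e-05). The others called lower were ORC6, GMNN, MCM2, MCM4, MCM5, MCM6, MCM10, CDC45, PRIM1, RFC3, RFC4, FEN1 and TIPIN.

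Of the 56 mitotic genes, 22 rose from 8 h to 16 h and 34 from 16 h to 24 h. Their difference was above 0 in 40, with a median of 0.51, but it was called in only 2, so for most of them the test did not separate the intervals. The 2, named after their values were seen, were AURKB and NUSAP1. AURKB, the kinase of the chromosomal passenger complex, stayed at 201 ± 1.42 and 195 ± 23.6 before reaching 671 ± 166 at 24 h, a difference of 1.71 ± 0.40 (adjusted p = 0.024). NUSAP1, a spindle protein, read 453 ± 91.6, 740.5 ± 106 and 3491 ± 164 at the 3 times, with a difference of 1.52 ± 0.26 (adjusted p = 0.0011). Without 16 h replicate 2, 16 h replicate 3 or 24 h replicate 3, the number called was 1, and with the larger pseudocount or the stricter filter it was 5. With quantile normalization or centring of the arrays it was 1. CDK1 rose in both intervals, by 1.25 ± 0.21 and then 1.68 ± 0.21, and its difference of 0.43 ± 0.36 was not called (adjusted p = 0.71).

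**Figure D3:**
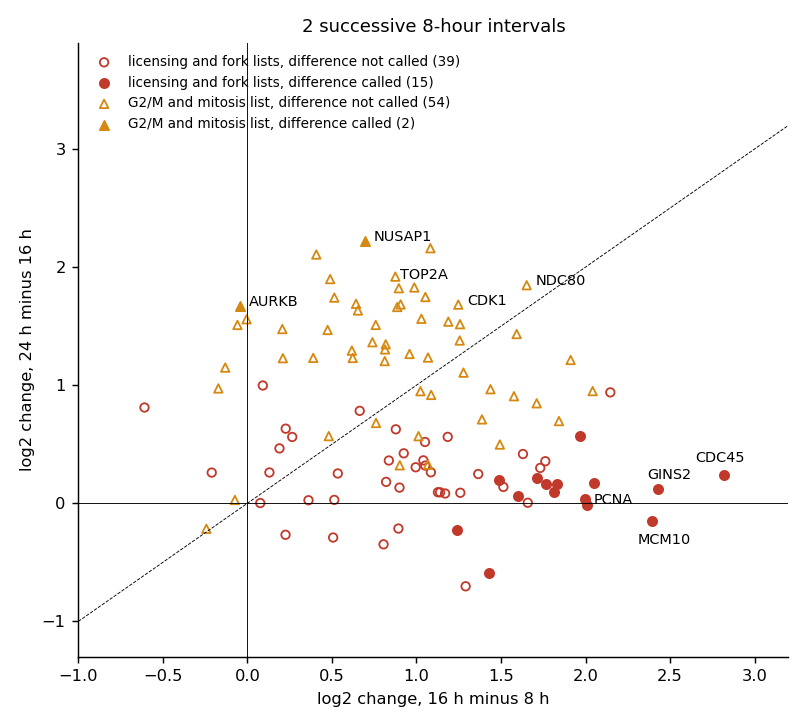
Log2 change from 16 h to 24 h (y axis) against that from 8 h to 16 h (x axis) for 54 licensing and fork genes (circles) and 56 mitotic genes (triangles), filled where the difference between the intervals was called (15 and 2), with equal change as a dashed line. Filled circles lie at 1.24 or more on the x axis and at 0.57 or less on the y axis, while most triangles lie above the dashed line. The axes share the 16 h arrays.

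Enzymes of liver metabolism were among the genes that fell. Of the 32 measured genes of drug metabolism, 12 fell (1.72% of all genes tested fell), and the list median was -0.83. After centring of the arrays on their medians 9 were called lower. CYP1A1, the cytochrome that is induced through the aryl hydrocarbon receptor, fell most of all genes (probe set 205749_at). Its signals were 4547, 4666 and 2835 at 8 h and 437, 273 and 162 at 16 h. The groups were far apart, and the change was -3.77 ± 0.32 (adjusted p = 5.9e-10). The mean at 0 h had been 185, so 8 h stood far above the start of the course, and the 12 h arrays lay between the times compared, at 1252, 1373 and 1313. The difference between its changes in the 2 intervals was 4.13 ± 0.55 (adjusted p = 5.8e-05), with a mean of 354 ± 77.1 at 24 h. The 1 list member that rose, named after its values were seen, was AHR, the receptor itself, from 222 ± 52.2 to 510.0 ± 134, by 1.13 ± 0.19 (adjusted p = 0.0001). The AHR mean at 0 h had been 588, above both.

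Further enzymes of this list, which act on alcohols, steroids and drugs, fell as well. SULT2A1, which sulfonates steroids and bile acids, read 2139, 2579.7 and 2014 at 8 h and 405, 345 and 567 at 16 h. It fell by 2.33 ± 0.24 without overlap (adjusted p = 2.6e-08), and its other probe set changed by -2.56. ADH1B, an alcohol dehydrogenase, read 4389, 5449.7 and 6154 at 8 h and 1070.3, 889 and 1206 at 16 h, and changed by -2.31 ± 0.27 (adjusted p = 2e-07). Its other probe sets changed by -2.92 and -2.26. FMO5, a flavin monooxygenase, changed by -1.90 ± 0.25. The main drug-metabolizing cytochrome CYP3A4, on an _x_at probe set, read 18428, 20694 and 26370.1 at 8 h and 9708, 10799.8 and 10279 at 16 h. The groups were apart and the change was -1.07 ± 0.20 (adjusted p = 0.00027), but its other probe sets disagreed, at -1.498, -1.29 and 0.57, and without 8 h replicate 3 the change was -0.93, under 2-fold. The related transcript CYP3A7-CYP3A51P, also on an _x_at probe set, changed by -1.48 ± 0.21. CYP2E1, which oxidizes ethanol, changed by -1.01 ± 0.24, and by -0.90 without 8 h replicate 3 and -0.94 without 16 h replicate 2, where it was no longer called. ADH1A, ADH6, CYP2C8, NAT2 and CYP4F2 were the remaining members called, the last on an _x_at probe set.

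Amino acid breakdown and the urea cycle had 9 of 31 measured members lower, and a median of -0.76. ARG1, the last enzyme of the urea cycle, showed one of the largest falls of all genes. Its signals were 1809, 2227 and 2379.8 at 8 h and 216, 384 and 409 at 16 h, with no overlap and a change of -2.65 ± 0.27 (adjusted p = 1.8e-08). CPS1, the first enzyme of that cycle, went from 632 ± 202 to 231 ± 2.27 and changed by -1.34 ± 0.26 (adjusted p = 0.00044). MAT1A, which makes the methyl donor S-adenosylmethionine in mature hepatocytes, read 2695, 3771 and 4567 at 8 h and 883, 1457 and 1026 at 16 h. All 16 h arrays were below all 8 h arrays, and it changed by -1.70 ± 0.16 (adjusted p = 7.9e-09). AASS of lysine breakdown changed by -1.67 ± 0.21, KMO of tryptophan breakdown by -1.47 ± 0.31 and CTH, which makes cysteine, by -1.42 ± 0.23. The other probe sets of CPS1, KMO and CTH changed by less than 2-fold, at -0.77 for CPS1, -0.95 and -0.32 for KMO and -0.67 for CTH. TDO2, PRODH and GNMT completed the list of those called.

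Fatty acid oxidation had 4 of 27 measured members lower, with a median of -0.29. ACSL1, which activates fatty acids, read 4366, 4065 and 3689 at 8 h and 1279, 1338 and 1460.3 at 16 h and changed by -1.56 ± 0.17 (adjusted p = 4.1e-08), with -1.94 on its other probe set. BDH1, an enzyme of ketone bodies, had nearly equal values at 8 h, of 431, 438 and 436, and 118, 79.1 and 53.8 at 16 h. It changed by -2.21 ± 0.31 (adjusted p = 7.2e-06). ACSM3 and ACOX2 were nearer the threshold, at -1.12 ± 0.24 and -1.02 ± 0.29. Without 8 h replicate 3 or 16 h replicate 1 the ACSM3 change was -0.93 and -0.97, and that of ACOX2 was -0.89 and -0.80, none of them called. ACOX2 was not called without 8 h replicate 2 either, at -0.98.

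In the bile acid and transport list 5 of 19 measured members were lower, and 3 without 8 h replicate 1, 8 h replicate 3 or 16 h replicate 1. ABCB4, the phospholipid exporter of the bile canaliculus, read 952, 879.8 and 1060.1 at 8 h and 352, 259.7 and 343 at 16 h and changed by -1.55 ± 0.17 (adjusted p = 5.1e-08). SLC10A1, the bile acid importer NTCP, changed by -1.29 ± 0.26 (adjusted p = 0.00072). These were clear falls with groups apart. SLC2A2, the glucose transporter GLUT2, changed by -1.14 ± 0.27, and by -0.996 without 16 h replicate 1. AKR1D1 and SLC22A7 were only just called, with adjusted p of 0.046 and 0.049, and AKR1D1 read 158, 135 and 169.6 at 8 h and 5.49, 83.4 and 81.4 at 16 h. The AKR1D1 call was lost without any 8 h replicate or without 16 h replicate 1, at -1.45, -1.55, -1.41 and -0.77. For SLC22A7 it was lost without any of the 6 arrays but 16 h replicate 1, at changes from -1.32 to -0.92, and its other probe sets changed by -0.36 and -0.29.

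RDH16, a retinol dehydrogenase of liver, was in no list and showed the second largest fall. Its signals were 192, 102 and 309.5 at 8 h and 6.43, 5.97 and 5.02 at 16 h, so all 16 h arrays were below the pseudocount of 18, and the change was -3.09 ± 0.38 (adjusted p = 6.4e-07). G6PC1, the glucose-6-phosphatase that releases glucose, was already far below its 0 h mean of 1179 at 8 h and went from 64.7 ± 15.6 to 9.02 ± 6.26, a change of -1.62 ± 0.38 (adjusted p = 0.0038). PCK1, the other key enzyme of gluconeogenesis, was dim at both times, at 5.23, 7.02 and 44.8 at 8 h and 1.82, 39.3 and 14.7 at 16 h. PIK3R1, the regulatory subunit of PI3-kinase, rose by 1.10 ± 0.17, but its other probe sets changed by 0.34 and -0.15. PIK3R1 had means of 2702, 333 and 734 at 0, 8 and 16 h, so 16 h stayed below the start.

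Of 44 measured plasma protein genes, 41 changes were below 0 and the median was -0.52, yet 1 was called, SERPIND1. Without 16 h replicate 1 the number was 3. At the adjusted p alone, with no fold threshold, 23 of 44 were lower, beside 5.55% of all genes, and 15 were after centring of the arrays. SERPIND1, heparin cofactor II, changed by -1.02 ± 0.18, and by less than 2-fold without 8 h replicate 1, 8 h replicate 2, 16 h replicate 1 or 16 h replicate 3, at -0.998, -0.95, -0.95 and -0.94. ALB, albumin, read 56965, 52272 and 58571 at 8 h and 47171, 44294 and 37046 at 16 h. The groups did not overlap, but the change was -0.39 ± 0.14 (adjusted p = 0.066). The other ALB probe sets changed by -0.046 and 1.06, and the mean of the 3 by 0.21, so the direction depends on the probe set. TTR, transthyretin, changed by -0.34 ± 0.12 (adjusted p = 0.07), and APOA1, on an _x_at probe set, by -0.51 ± 0.12 (adjusted p = 0.0033).

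Among 20 measured hepatocyte transcription factors the median change was -0.31 and 1 was called lower. NR1I3, the xenobiotic receptor CAR, read 127, 134 and 197 at 8 h and 26.4, 93.3 and 7.51 at 16 h and changed by -1.74 ± 0.45 (adjusted p = 0.0078). It was not called without 8 h replicate 3 or 16 h replicate 3, at -1.57 and -1.26. CEBPA, which sustains the hepatocyte state, had a mean of 625 at 0 h and read 46.5, 79.0 and 107 at 8 h and 50.1, 40.2 and 86.6 at 16 h. Its groups overlapped and the change was -0.30 ± 0.35 (adjusted p = 0.66). AFP, the fetal counterpart of albumin, rose from 112, 113 and 53.3 to 180.1, 323 and 242, by 1.29 ± 0.28 (adjusted p = 0.0015). Without 8 h replicate 3 that change was 0.998, just under 2-fold.

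**Figure D4:**
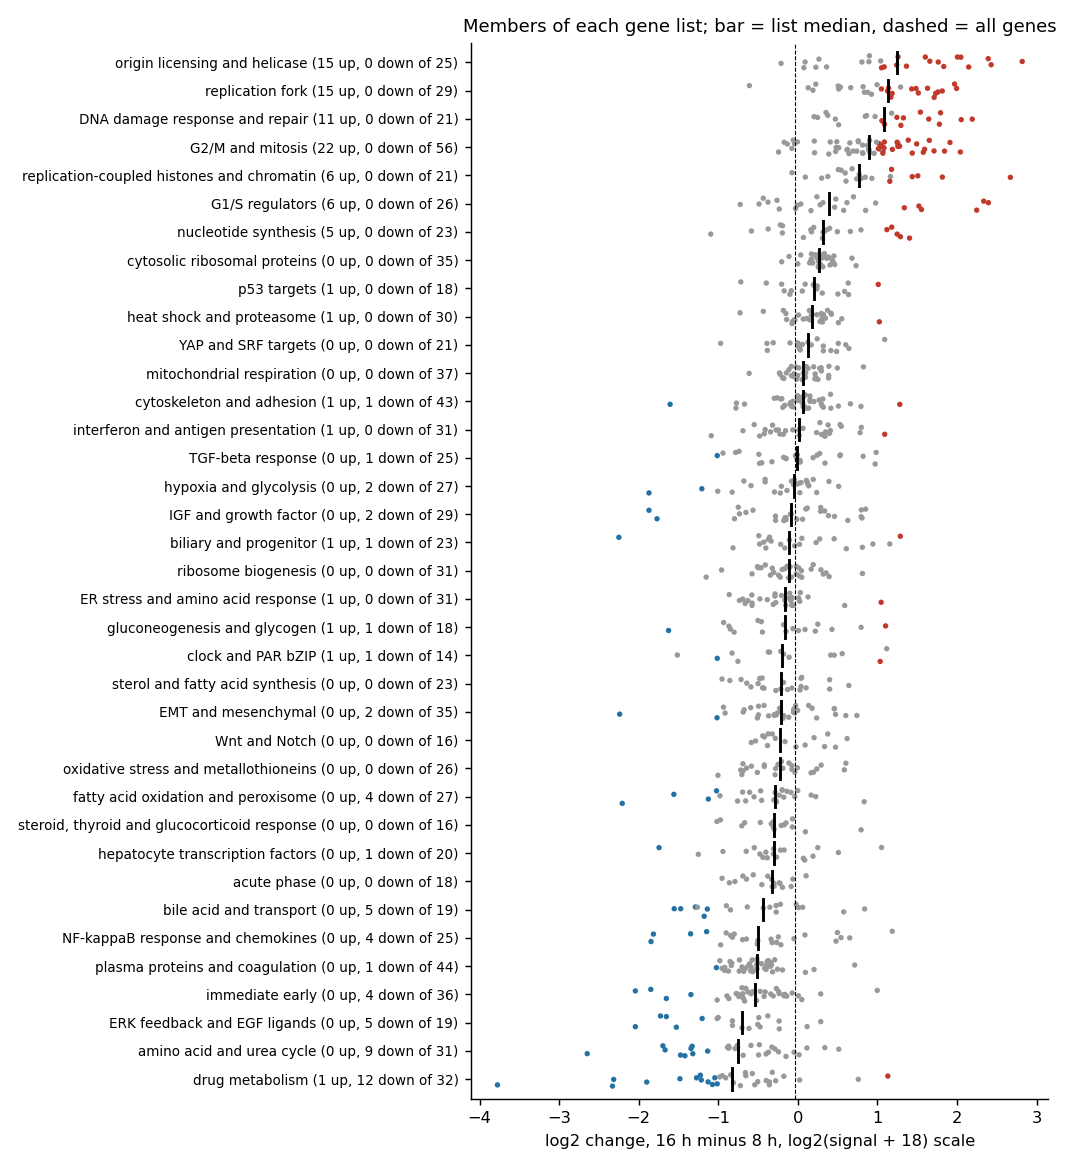
Log2 change from 8 h to 16 h (x axis) of each measured member of 37 gene lists (rows, ordered by median), in red where called higher, blue where called lower and grey otherwise, with the list median as a bar and the median of all genes as a dashed line at -0.03. Replication, repair and mitosis lie at the top, with medians from 0.89 to 1.24 for the first 4, and drug metabolism at the bottom, at -0.83.

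Genes that answer growth factor and inflammatory signals fell as well. The list of ERK feedback genes and EGF-family ligands, which are switched on by ERK signalling and, in the case of the feedback genes, restrain it, had 5 of 19 measured members lower and a median of -0.70. DUSP6, the phosphatase that inactivates ERK, read 957, 555 and 689 at 8 h and 162, 173 and 147 at 16 h. The groups were apart, and the change was -2.04 ± 0.24 (adjusted p = 4.4e-07), with -0.78 and -1.09 on its other probe sets. SPRY2, a Sprouty inhibitor of receptor signalling, changed by -1.53 ± 0.23 (adjusted p = 2.8e-05). SPRY4 changed by -1.73 ± 0.45, and by -1.45 without 16 h replicate 1, where it was not called (adjusted p = 0.058). DUSP5 and PHLDA1 changed by -1.65 ± 0.34 and -1.203 ± 0.20, and PHLDA1's other probe sets by -0.21 to -1.82. DUSP5 had means of 60.1, 1551 and 502 at 0, 8 and 16 h. From 0 h to 8 h the median of the list had been 1.40, against -0.15 over all genes.

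The immediate early list, of genes induced within minutes of a stimulus, had 4 of 36 measured members lower and a median of -0.54, and shares DUSP5 and DUSP6 with the list before. MYC, the growth regulator, read 3908, 4374 and 4771 at 8 h and 2412, 1448 and 1399 at 16 h. Its groups did not overlap, and it changed by -1.34 ± 0.21 (adjusted p = 4.4e-05). FOSB, an AP-1 subunit, ended below the pseudocount of 18, at 11.9, 9.13 and 12.1 after 101, 102 and 61.6, a change of -1.85 ± 0.45 (adjusted p = 0.0048). FOS, which had averaged 6616 at 0 h, was dim at both times, at 21.4, 128 and 76.7 at 8 h and 78.2, 54.5 and 37.7 at 16 h, and EGR1 changed by -0.52 ± 0.21 (adjusted p = 0.12).

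Of 25 measured NF-kappaB responders and chemokines, 4 fell, and the median was -0.50. TNFAIP3, the A20 protein that shuts NF-kappaB signalling off, read 2768, 2025 and 2618 at 8 h and 638, 824 and 568 at 16 h. It changed by -1.84 ± 0.21 without overlap (adjusted p = 1.9e-07), and by -2.34 on its other probe set. CXCL10, a chemokine for T cells, changed by -1.81 ± 0.27, and CCL20, a chemokine of epithelia, by -1.35 ± 0.29. CCL20 stayed bright, at 2437, 3962 and 4544 after 10717, 8160.5 and 8356. NFKB1, a subunit of the factor, changed by -1.15 ± 0.26, and by -0.91 without 16 h replicate 3, where it was not called. Not all chemokines followed: CCL2 read 1426, 1236 and 1349 at 8 h and 1789, 2201 and 2377 at 16 h, above 8 h on every array, and its change of 0.65 ± 0.21 was under 2-fold (adjusted p = 0.042). CXCL8, on an _x_at probe set, overlapped between the times and changed by -0.69 ± 0.37 (adjusted p = 0.25), and IL6 changed by -0.32 ± 0.29 (adjusted p = 0.55).

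Single genes outside these groups fell too, among them growth factors and brakes on signalling. VEGFA, the angiogenic factor, had nearly equal values at 8 h and fell on every array, reading 1706, 1722 and 1734 at 8 h and 577, 474 and 349 at 16 h. It changed by -1.87 ± 0.23 (adjusted p = 4.9e-07) and its 3 other probe sets by -1.03 to -1.49. NDRG1, the other of 2 hypoxia-list members called, changed by -1.21 ± 0.18, while the median of the 27 members was -0.05 and above 0 after centring. STC1, the secreted stanniocalcin, changed by -1.77 ± 0.28. RGS2, a brake on G-protein signalling, read 1918, 2053 and 2193 at 8 h and 485, 266 and 532 at 16 h. It changed by -2.27 ± 0.35 (adjusted p = 2.9e-05). The RGS2 mean at 0 h had been 136, below that of 427 at 16 h. THBD, the thrombin receptor thrombomodulin, changed by -2.06 ± 0.41, with -2.12 on its other probe set. HSPA6, a heat-inducible HSP70, changed by -2.24 ± 0.55, and by -1.41 without 16 h replicate 1, where the call was lost.

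Few biliary, progenitor or mesenchymal markers were called. Of 23 measured biliary and progenitor genes 1 rose, AFP, and 1 fell. The latter was KRT23, a keratin, with signals of 2498, 2174 and 2660.2 at 8 h and 589.8, 427 and 491 at 16 h and a change of -2.25 ± 0.40 (adjusted p = 0.00017). KRT19, a biliary keratin, stayed bright at 18286, 19826 and 20288 at 8 h and 18118, 13186 and 14691 at 16 h, and changed by -0.36 ± 0.15 (adjusted p = 0.12). SOX9, the biliary and progenitor factor, changed by -0.81 ± 0.17 (adjusted p = 0.0014) with groups apart, but by less than 2-fold. SNAI2, an EMT factor, likewise changed by -0.91 ± 0.18 (adjusted p = 0.00054). Of 35 EMT and mesenchymal genes 2 fell, LOXL2 and MMP3. MMP3, a matrix protease, read 9761, 8501 and 9037 at 8 h and 4229, 4584 and 4658 at 16 h and changed by -1.02 ± 0.18, and by -0.96 and -0.97 without replicate 1 of 8 h or of 16 h. LOXL2 changed by -2.24 ± 0.54, with -0.43 on its other probe set. In the cytoskeleton and adhesion list TUBA1A, an alpha-tubulin, rose by 1.28 ± 0.20. ITGA2, a collagen-binding integrin, changed by -1.61 ± 0.35, or by -0.92 without 16 h replicate 2. Means at 0 h had been 165 for MMP3 and 114 for ITGA2, below their 16 h means of 4490 and 449.

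Markers of other cells were read for the same arrays. Of 9 measured stellate and fibroblast markers 1 rose, POSTN, the matrix protein periostin, with signals of 738, 743 and 826 at 8 h and 3010.4, 2893 and 2447 at 16 h and a change of 1.83 ± 0.17 (adjusted p = 2.2e-09). The summed signal of that list, POSTN included, went from 3476 to 4088 at 8 h to 6172 to 6731 at 16 h. The median log2 change of its members was 0.10. The 8 measured cholangiocyte markers summed to 26190.0 to 28020.0 at 8 h and 18640.0 to 23970.0 at 16 h, with KRT23 called lower. Their median log2 change was -0.335, and it was -0.267 for the 4 endothelial and -0.245 for the 8 leukocyte markers. Of 14 hepatocyte markers 4 fell, with a list median of -0.39. Those 4 were G6PC1, CPS1, CYP3A4 and CYP2E1, and without 8 h replicate 3 the number was 2. The part of any change in cell makeup in the falls described above was not tested.

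Both 4-hour steps of the interval contributed. Of the 203 genes called higher, 202 were higher at 12 h than at 8 h and 196 moved upward in both steps, with median changes of 0.82 from 8 h to 12 h and 0.56 from 12 h to 16 h. Of the 171 called lower, 168 and 163 did so downward, with medians of -0.67 and -0.68. The members had been chosen by the sum of both steps, so these counts are a description. A test of the difference between the steps called 0 of 9966 genes with limma, and 516 had an unadjusted p under 0.05. MCM10 and E2F1 made most of their change in the first step, at 2.08 ± 0.31 and 2.02 ± 0.38, against 0.31 ± 0.31 and 0.23 ± 0.38 in the second. E2F8 showed the reverse order, with 0.71 ± 0.29 and then 1.69 ± 0.29. No such gene passed the test of the difference itself.

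**Figure D5:**
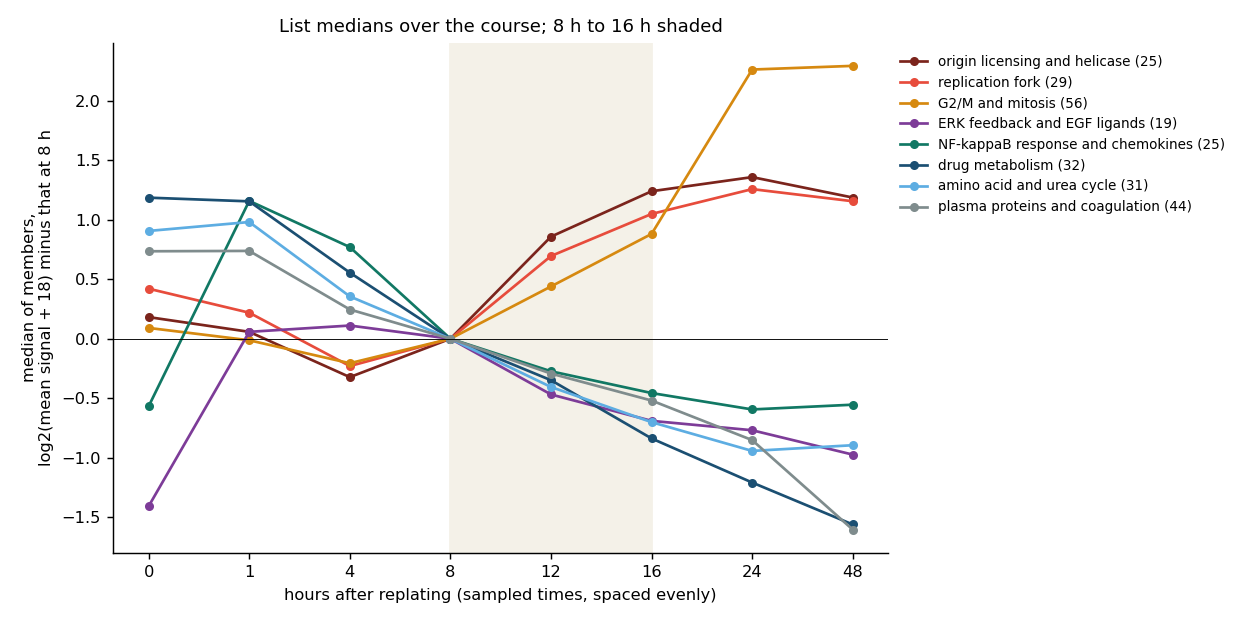
Median over the members of 8 lists (y axis, log2(mean signal + 18) minus the value at 8 h) at the 8 sampled times (x axis, spaced evenly), with 8 h to 16 h shaded and the number of members in the legend. All lines meet at 0 at 8 h by construction. Within the shaded interval licensing, fork and mitosis rise and the other 5 lists fall.

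Many other groups had no called member or 1. With limma, none was called in the lists for cytosolic ribosomal proteins (35 measured, 18 higher at an unadjusted p under 0.05, beside 24.0% of all genes in either direction), mitochondrial respiration (37 measured, 7 higher and 1 lower unadjusted), ribosome biogenesis (31 measured, 4 and 6), sterol and fatty acid synthesis (23 measured, 1 and 9), acute phase proteins (18 measured, 8 lower), and Wnt and Notch (16 measured, 1 higher). None was called either among YAP and SRF targets (21 measured, 3 and 3), oxidative stress and metallothionein genes (26 measured, 4 and 9) and steroid and glucocorticoid responders (16 measured, 1 and 5). Ribosomal protein genes had a median of 0.27 and a positive change in 32 of 35, and 7 were higher at the adjusted p with no fold threshold, beside 6.34% of all genes. In the p53 list, of genes that p53 switches on after DNA damage, 1 of 18 was called, DDB2, a sensor of ultraviolet damage. Its change was 1.01 ± 0.16, and under 2-fold without 8 h replicate 1, 8 h replicate 2 or 16 h replicate 1, at 0.99, 0.998 and 0.83. HSPB1, a small heat shock protein, was the 1 of 30 heat shock and proteasome genes called, at 1.02 ± 0.16, and was under 2-fold without 8 h replicate 1, 8 h replicate 3, 16 h replicate 2 or 16 h replicate 3, at 0.95 to 0.98. IFI44, an interferon-induced gene, rose by 1.09 ± 0.23, with means of 528, 178 and 399 at 0, 8 and 16 h. PSPH, the last enzyme of serine synthesis, rose by 1.05 ± 0.30, and by 0.73 and 0.84 without 8 h replicate 2 or 16 h replicate 1. Its means were 306, 105 and 229 at 0, 8 and 16 h. In the clock list, the repressor NR1D2 rose by 1.03 ± 0.34 (adjusted p = 0.042), a call lost without any 1 of 8 h replicates 2 and 3 and the 16 h replicates, at 0.91 to 1.06. NR1D2 had means of 250, 62.45 and 143 at 0, 8 and 16 h. BHLHE40, a second clock repressor, changed by -1.01 ± 0.19, and by -0.97 and -0.83 without 8 h replicate 1 or 16 h replicate 3.

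Of the genes called, 113 of those higher and 119 of those lower were in no list. Among those higher, TEDC2, of the tubulin epsilon and delta complex, went from 47.4, 6.58 and 17.6 to 231, 248 and 249, a change of 2.76 ± 0.58 (adjusted p = 0.0012). PCLAF, a PCNA-associated factor, read 1409, 971 and 774 at 8 h and 5324, 6218 and 6120.0 at 16 h. Its mean at 0 h had been 2755. Its groups were far apart, and the change of 2.505 ± 0.14 had the smallest adjusted p of the genes named, 5.4e-14, with 3.00 on its other probe set. MYBL1, a MYB-family factor, rose by 2.29 ± 0.39, FIRRM, a partner of FIGNL1 in recombination, by 2.23 ± 0.52, and NUDT1, which clears oxidized nucleotides, by 2.17 ± 0.43. PCDH9, a protocadherin, rose by 2.20 ± 0.35, and PTPRR, a phosphatase, by 2.23 ± 0.64, although PTPRR lost its call without 8 h replicate 3 or 16 h replicate 2, at 2.11 and 1.90, and its other probe set changed by 0.63. PCDH9 had means of 286, 40.8 and 229 at 0, 8 and 16 h. PTPRR was dim at 8 h, at 7.97, 9.66 and 2.70, all below the pseudocount of 18, and FIRRM read 77.6, 5.92 and 16.2 there. Among those lower there were several dim genes too. CYBA, a subunit of NADPH oxidase, read 117, 70.8 and 117 at 8 h and 10.9, 6.05 and 10.2 at 16 h and changed by -2.12 ± 0.57, or by -2.02 without 8 h replicate 3, where it was not called. LINC02172 and IFNA4, the latter on an _x_at probe set, changed by -2.03 ± 0.47 and -2.29 ± 0.55, from 8 h signals of 118 or less.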

How the data were processed

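RNA of HepaRG cells was read on a 1-colour Affymetrix array with 22283 probe sets. The authors deposited linear intensities, made with MAS5, per the submitters' processing notes. Which version and target level they used is not given in the sources used here. Each deposited array's mean signal, trimmed by 2% at both ends, lay near 500.2, so the arrays share a level. Detection calls were not used here. The precision is limited by the number of arrays.

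Signals of the 22215 non-control probe sets entered as log2(signal + 18), 18 being the 20th percentile of all signals, without further normalization. Probe sets above their array's 40th percentile on at least 3 of 24 arrays were tested (17122). Each gene was read by its brightest tested probe set with 1 symbol in the array's annotation, which left 9966 genes, 763 of them on _x_at probe sets. limma 3.58.1 in R 4.3.3 (lmFit and trended eBayes, with 16 residual degrees of freedom) was fitted over all 24 arrays with time as the only factor and no block. The contrasts were 16 h against 8 h, the steps from 8 h to 12 h and from 12 h to 16 h, the difference between these steps, and the difference from the change between 16 h and 24 h. The fit was tested on simulated data. Arrays were compared by exact permutation tests.

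The 42 gene lists, their members and the tests were chosen with earlier results of these data known. Named genes were the 15 largest rises and falls among called genes with separate groups, up to 5 called members per list, 4 per direction of each interval difference, and a set named wherever measured, of which HNF4A was not tested and 1 gene is not reported here. Not every gene that meets this rule is described. Genes outside it are marked as chosen after their values were seen, or given by name within a list. Promoters came from RefSeq (GRCh38.p14) and covered 8116 of the 9966 genes. No genome was used here beyond that table. Alternatives covered the pseudocount, scaling, filter, probe sets, arrays fitted, replicate block, fold threshold, variance trend and each array left out. Python 3.11.15 with matplotlib 3.10.9 drew the figures.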

Additional observations from a re-analysis of the deposited data

Results flagged for a closer look

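For 8 genes the log2 change from 16 h to 24 h differed from that from 8 h to 16 h, by limma's test of the difference itself with Benjamini-Hochberg adjustment over all genes. They are the 4 most extreme in each direction among the genes whose difference was called. Some genes whose difference was not called had larger ones. Both intervals share the 16 h arrays. In the later interval the change was lower by -2.81 ± 0.66 for E2F1 (adjusted p = 0.026), -2.58 ± 0.60 for CDC45 (0.026), -2.57 ± 0.42 for CCNE2 (0.00087) and -2.54 ± 0.54 for MCM10 (0.011). It was higher by 4.15 ± 0.66 for RDH16 (0.00073), 4.13 ± 0.55 for CYP1A1 (5.8e-05), 3.25 ± 0.64 for ADAP1 (0.0051) and 3.08 ± 0.77 for HTR1F (0.042).

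The calls for CCNE2, RDH16 and CYP1A1 held in every alternative run for this test. CDC45 was not called without 8 h replicate 2, 24 h replicate 2 or any single 16 h replicate, at differences from -2.14 to -2.78, nor with no filter or no variance trend. MCM10 lost its call without 16 h replicate 1 (-2.22) or 16 h replicate 2 (-2.55), ADAP1 without 16 h replicate 3 (3.01) or with the mean of its probe sets (1.94). E2F1 lost its call without 8 h replicate 3, 24 h replicate 1 or any 16 h replicate, at -2.60 to -3.09, and with no filter, no variance trend or the mean of its probe sets (-1.71). HTR1F kept its call without 16 h replicate 1 or 24 h replicate 3 and lost it without any other single array, at 2.29 to 3.16, and under 6 other settings. ADAP1, a GTPase-activating protein, had means of 119, 25.5 and 112 at 8, 16 and 24 h, and the serotonin receptor gene HTR1F 119, 25.4 and 79.9, so both were dim.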

How the results depend on the processing

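The counts called between 8 h and 16 h were 203 higher and 171 lower. They became 122 and 109 with a pseudocount of 73.8, and 632 and 553 with no fold threshold. Leaving out single arrays gave 177 to 218 higher and 132 to 187 lower. Under the other alternatives run for these counts they stayed within 1.5 times. The share of higher genes moved most with centring, and 203 and 117 of the genes called there were also called without it. The replicate numbers did not pair the arrays: deviations of same-numbered 8 h and 16 h arrays correlated at -0.034, -0.0055 and -0.014, and 10 of 24 arrays correlated best with their own number. With the replicate block 204 genes were higher and 170 lower, 201 and 166 of them shared with the fit without it, and it ended the call of no named gene. The difference between the changes from 8 h to 12 h and from 12 h to 16 h was called for 0 genes under every alternative run, leave-one-out included, where the range was 0 to 0. The difference from the next interval, 84 genes, became 49 without the mean-variance trend, and 42 to 96 with single arrays left out. Of the 106 named genes called, 68 kept the call in every alternative that tested them, 15 or 16 each, and none of the 133 named genes reversed as a called gene. MKI67, TOP2A and SNAI2, not called, gained a call in at least 1 alternative. The pseudocount damps the changes of dim genes, which limits what these 6 arrays resolve.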

Other observations

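Some genes of cell identity that are often followed in liver cells were not called. CDH1, the epithelial cadherin, read 378, 497 and 623 at 8 h and 234, 255 and 449 at 16 h, with overlapping groups and a change of -0.67 ± 0.25 (limma, adjusted p = 0.079). Its other probe set changed by 0.55, the opposite direction. KRT7, a biliary keratin, read 171, 254 and 77.0 at 8 h and 100.0, 193 and 163 at 16 h, and its change was -0.04 ± 0.40 (adjusted p = 0.97). CD44, an adhesion receptor of progenitors, was lower on every 16 h array, at 4863, 4578 and 4237 after 7454, 6755 and 5215, but changed by less than 2-fold, at -0.49 ± 0.16 (adjusted p = 0.039). CYP7A1, which starts the main route of bile acid synthesis, had a mean of 469.7 at 0 h and was dim at both later times, at 2.13, 2.45 and 15.3 at 8 h and 30.9, 20.7 and 6.06 at 16 h. FASN, the fatty acid synthase, had a mean of 1229 at 0 h and read 176, 268 and 230.0 at 8 h and 185, 183 and 172 at 16 h, with a change of -0.28 ± 0.25 (adjusted p = 0.57), while its other probe set changed by 1.06.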
